A study of Mus musculus with 10 samples.

Results

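The genes described here encode the nuclear subunits of the oxidative phosphorylation system in embryonic mouse limb buds. They were taken as every gene whose array annotation gives a single symbol beginning with Ndufa, Ndufb, Ndufs, Ndufv, Ndufc, Sdh, Uqcr, Cox4, Cox5, Cox6, Cox7, Cox8 or Atp5. That gave 94 genes of the 18193 with a single-symbol probe set. Where a gene had several probe sets, the one with the highest mean log2 signal over all arrays was used, so 94 of 185 candidate probe sets entered. The symbol rule also takes in 14 genes for assembly and accessory factors, such as the Ndufaf and Sdhaf genes, and leaves 80 genes for subunits proper. Of the 94 genes, 89 passed the filter on dim probe sets, a mean signal of at least 151 over the arrays. The other 5 (Cox4i2, Cox7a1, Cox7b2, Cox8b and Ndufb4) lay below it and were described but not tested. Ndufb4 was represented by a dim probe set, since its other probe sets carry several symbols.

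The study asked how gene expression differs in limb buds of embryos from which Dicer, the enzyme that matures microRNAs, was removed in the limb mesenchyme. Each of the 2 genotypes, wild type and Dicer mutant, was measured on 5 arrays that carry the numbers 1 to 5. The embryos came from 1 kind of cross: a parent with prxcre and a single Dicer floxed allele was mated to a homozygous Dicer floxed parent, and limb buds were genotyped as heterozygous, wild type or mutant. The prxcre driver acts in limb bud mesenchyme, so other cells of a mutant bud, such as ectoderm and blood, keep an undeleted gene. The sources used here do not give the stage, the limb, the number of embryos behind an array or the alleles that the wild type embryos carried. They also do not say whether arrays of a group came from separate embryos, so p-values cover the spread among the arrays at hand, part of which may be technical. In whole limb buds, fewer cells of a type and less RNA per cell cannot be told apart.

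Oxidative phosphorylation takes place in the inner mitochondrial membrane. Complexes I and II feed electrons from NADH and succinate to ubiquinone, complex III passes them to cytochrome c, complex IV hands them to oxygen, and complex V, the ATP synthase, uses the resulting proton gradient to make ATP. A few catalytic subunits are encoded by mitochondrial DNA and all others by nuclear genes, among them the subunit genes described here. Transcription factors known to act on these genes include NRF1, GABPA of the ETS family, YY1 and the receptor ERR alpha.

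Promoters of 4 of these genes are shown because the genes had low values together in the mutant buds and because each shows a different state of the known motifs. Uqcrh, Atp5g3 and Ndufc1 were called as lower in the 8-array comparison given below. The chosen probe set of Atp5k was not (-0.37 on the log2 scale, SE 0.078, limma adjusted p = 0.0509), though 1 of the gene's 3 tested probe sets was. The windows run from 100 bases before to 20 after the RefSeq start in assembly GRCm38.p6, on the gene's strand, with motif matches in capitals. Atp5k (chr5:108434380-108434499, minus strand) holds an NRF1 match, on both strands, that begins 50 bases before the start. Uqcrh (chr4:116075051-116075170, minus strand) holds an ETS match, read on the opposite strand, 11 bases before it. Atp5g3 (chr2:73911307-73911426, minus strand) holds an ERR alpha match, also on the opposite strand, 52 bases before it. Ndufc1 (chr3:51408936-51409055, minus strand) holds none of the 4 motifs in these 120 bases.
Atp5k: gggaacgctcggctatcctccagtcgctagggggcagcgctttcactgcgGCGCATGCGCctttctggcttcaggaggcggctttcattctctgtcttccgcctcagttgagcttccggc
Uqcrh: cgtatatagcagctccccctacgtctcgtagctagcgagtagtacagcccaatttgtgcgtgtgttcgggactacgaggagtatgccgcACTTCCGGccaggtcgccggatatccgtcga
Atp5g3: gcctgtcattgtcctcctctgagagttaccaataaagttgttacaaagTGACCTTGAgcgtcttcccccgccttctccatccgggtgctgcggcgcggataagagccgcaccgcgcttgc
Ndufc1: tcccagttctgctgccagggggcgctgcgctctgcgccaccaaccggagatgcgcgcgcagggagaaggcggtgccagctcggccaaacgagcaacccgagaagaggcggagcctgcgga

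Motifs were searched on both strands in the window of 300 bases from 250 before to 50 after each start, for the 78 of 94 genes found in the RefSeq promoter table. The NRF1 letters GCGCATGCG occurred in 9 of the 78 (11.5%), against 1.95% of the 27025 genes in the table. The ETS letters CCGGAAGT occurred in 5 (6.41%, against 4.31%), the YY1 letters AAGATGGCG in 7 (8.97%, against 1.64%) and the ERR alpha letters TCAAGGTCA in 2 (2.56%, against 0.466%). At least 1 of them was held by 22 of the 78 genes (28.2%), against 7.93% of all genes, and Uqcr11 held 2, which do not overlap. Ndufc1 was among the 7 with the YY1 letters, which lie outside its printed stretch. Of the genes called as lower in the mutant, described below, Ndufc1, Uqcrh and Atp5g3 held 1 motif each. Cox6b1, Atp5e, Atp5md and Cox7a2 held none in the 300 bases, and Ndufa2 was not found in the promoter table. These are letter matches and not measured sites. In the 8-array comparison given below, the median difference between mutant and wild type was -0.21 on the log2 scale for the 9 with an NRF1 match and -0.19 for the 65 tested genes without, and -0.19 for the 7 with a YY1 match against -0.20 for the 67 without. It was -0.19 for the 5 with an ETS match against -0.20 for the 69 without, and -0.26 for the 2 with an ERR alpha match against -0.20 for the 72 without.

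Signals were on a common scale, with array medians between 145.8 and 152.8. Dicer1, the targeted gene, did not match the labels in the 2 arrays with number 2: its dimmer probe set read 233 in wild type 2 and 360 in Dicer mutant 2, while the remaining arrays read 372 to 706 in wild type and 205 to 226 in mutant. Each comparison is therefore given with all 10 arrays as labelled and with the 8 arrays left without that number, a choice made with the data seen. Arrays numbered 4 and 5 lay apart from numbers 1, 2 and 3 on the leading principal component, which held 37.7% of the variance. Differences are mutant minus wild type on the log2 scale, fitted with limma over all 22519 probe sets past the filter, and called where the Benjamini-Hochberg adjusted p was below 0.05.

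With all 10 arrays as labelled, no oxidative phosphorylation gene was called, as for all probe sets (0 of 22519 called, 0%), and the fit with the replicate number as a block also called 0. An unadjusted p below 0.05 was found for 11 of the 89 genes (12.4%) and for 2.81% of all probe sets tested. Values lay below 0 in 86 of 89 genes, against 59.7% of all probe sets. The median was -0.13, against -0.021 over all probe sets. The genes ranked first by limma were Ndufs5, an accessory subunit of complex I (-0.30, SE 0.10), Cox6b2, the testis-type form of a complex IV subunit (-0.24, SE 0.084) and Atp5g3, a gene for the membrane ring of the ATP synthase (-0.13, SE 0.049). Each had a limma adjusted p of 1.00. In 0 of the 89 genes did all 5 mutant arrays lie below all 5 wild type arrays, against 0.293% of all probe sets.

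Array by array, most oxidative phosphorylation genes were high or low in the same arrays. Relative to each gene's mean over the 10 arrays, the median of the 89 genes stood at 0.13, 0.16, 0.097 and 0.030 in wild type 1, 3, 4 and 5, and at -0.035, -0.10, -0.13 and -0.11 in Dicer mutant 1, 3, 4 and 5. Wild type 2, by its label, stood at -0.078 and so among the mutants. Dicer mutant 2, by its label, stood at 0.058 and so among the wild types. These 2 arrays thus lay on the side opposite to their label for these genes as they did for Dicer1. Whether their labels were exchanged was not tested, and the values over 10 arrays hold for the labels as deposited. Over all tested probe sets the same medians stayed between -0.042 and 0.027.

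**Figure D1:**
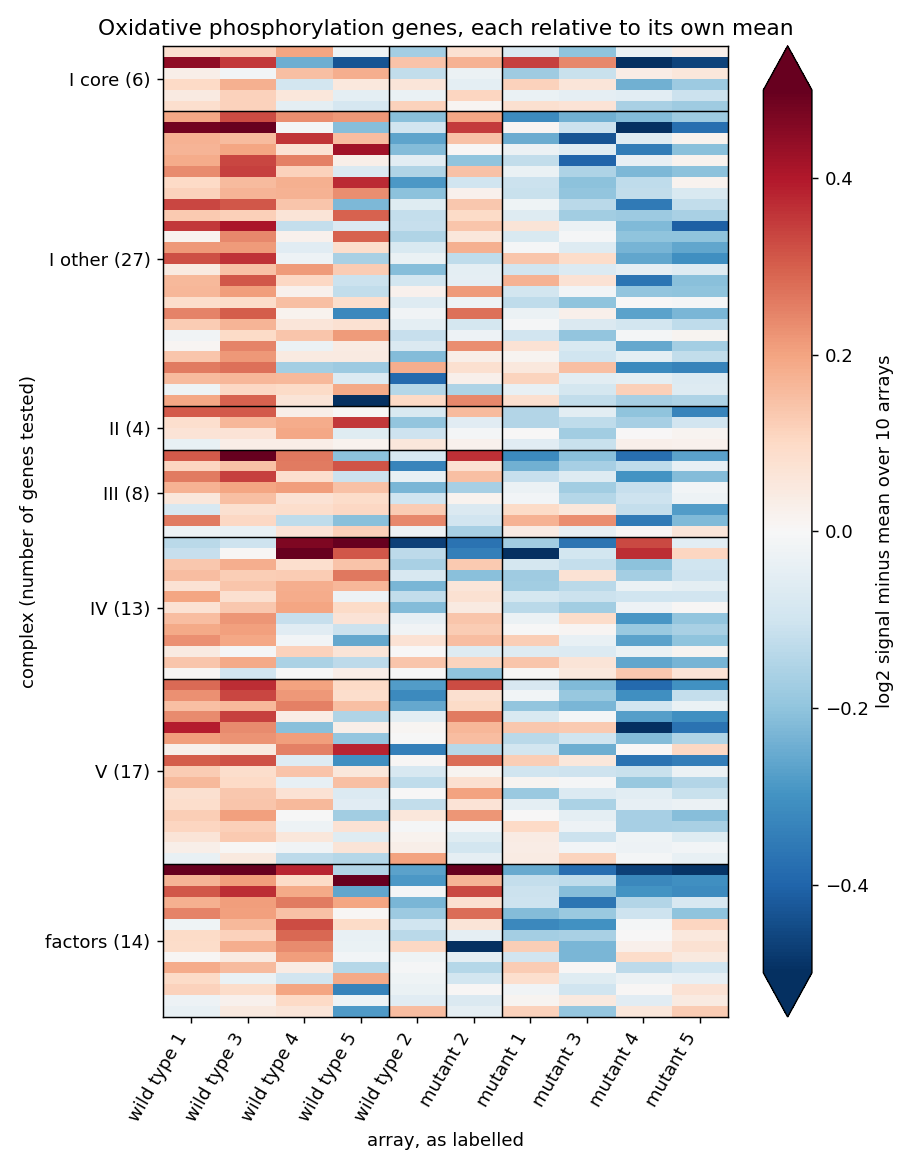
Log2 signal of 89 oxidative phosphorylation genes (rows, grouped by complex, with the number of genes tested) in each of the 10 arrays (columns), minus the gene's mean over the arrays. Wild type 1, 3 and 4 are mostly above the mean and the mutant arrays other than number 2 mostly below, while wild type 5 is mixed and the arrays labelled 2 stand apart from their groups.

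In the 8 arrays without number 2, the mutant limb buds had lower levels of 8 oxidative phosphorylation genes, spread over complexes I, III, IV and V, and of no gene in the other direction. The 8 genes were Ndufc1, Cox6b1, Atp5e, Ndufa2, Uqcrh, Atp5md, Atp5g3 and Cox7a2, each lower in 4 of 4 pairs, and their signals were lower by 12.3% to 28.6%. They make up 8.99% of the 89 genes tested. Over all 22519 probe sets 1.68% were called, made up of 0.75% lower and 0.928% higher in the mutant. Of the 89 genes, 86 had values below 0 (96.6%, against 52.3% of all probe sets), and the median was -0.19, against -0.0064. With the replicate number as a block, 30 of the 89 were called (33.7%), all lower and including all 8. The block called 5.41% of all probe sets, made up of 3.01% lower and 2.4% higher. The shares called as lower, 0.75% and 3.01% with the block, are those to set beside the counts of calls given below. An unadjusted p below 0.05 was found for 47 of the 89 (52.8%), against 12.7% of all probe sets, the share to set beside the like counts given below. Differences were small: 51 genes had values between -0.3 and -0.1, 22 had values under -0.3 and 3 stood above 0.

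All 4 mutant arrays lay below all 4 wild type arrays in 31 of the 89 genes (34.8%), against 4.97% of all probe sets, and the reverse was seen in 0 genes, against 4.12%. A lower signal in the mutant array of each of the 4 numbers was found in 60 of 89 genes (67.4%), against 16.8% of all probe sets. By number, 79 genes were lower in the mutant array of number 1, 85 of number 3, 85 of number 4 and 69 of number 5, with medians of -0.19, -0.27, -0.23 and -0.13. Of all probe sets, 55.7%, 50.2%, 50.2% and 51.9% were lower in the mutant array of these numbers. Between the arrays numbered 2, left out of the fit, 26 were lower and 63 higher, with a median of 0.16, while 61.3% of all probe sets were lower in that pair. All 8 called genes were higher in the mutant array of number 2.

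**Figure D2:**
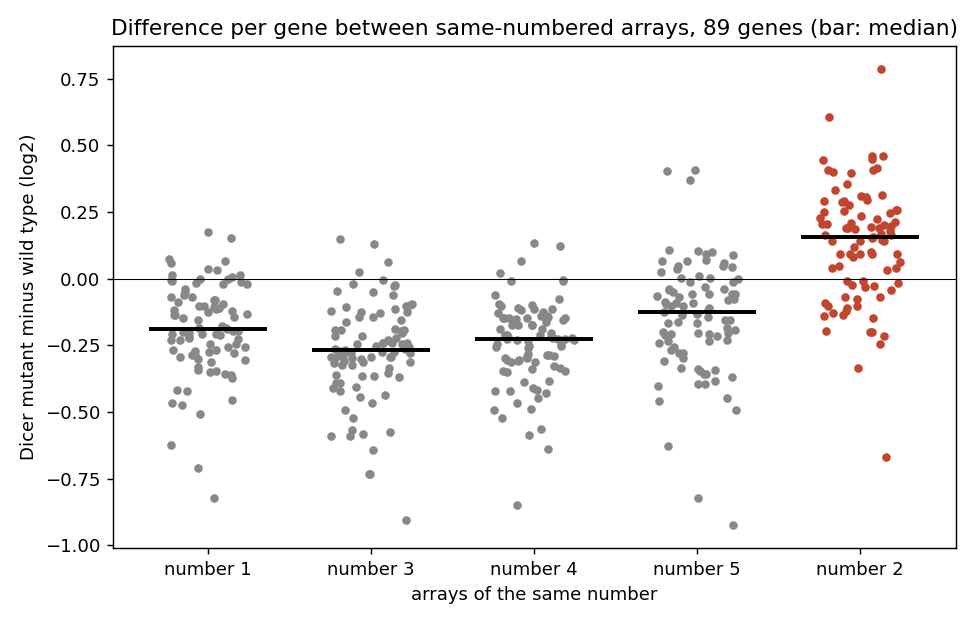
Difference between the Dicer mutant and the wild type array of each number (log2, vertical axis), 1 point per gene for 89 genes, with the median as a bar. Medians lie between -0.27 and -0.13 for numbers 1, 3, 4 and 5 and at 0.16 for number 2.

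The count of calls depended on single arrays, and the median changed less. Without wild type 1, 3 or 4 or without Dicer mutant 3, 4 or 5, 1 gene was called, in each case Ndufc1. Without Dicer mutant 1 the calls were Ndufc1 and Atp5e, and without wild type 5 there were 18. Over all probe sets 1.91% were called as lower without wild type 5, and 0.0844% to 0.164% in the 7 other refits. Over these 8 refits the median stayed between -0.23 and -0.17. Pairs 1 and 3 alone gave 21 called genes and a median of -0.22 (2.19% of all probe sets called as lower). Pairs 4 and 5 alone gave 0 called genes, as for all probe sets (0%), and a median of -0.18, with 84 of 89 genes below 0. There limma gave 33 of the 89 genes an unadjusted p below 0.05, and 2132 of the 22519 probe sets.

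**Figure D3:**
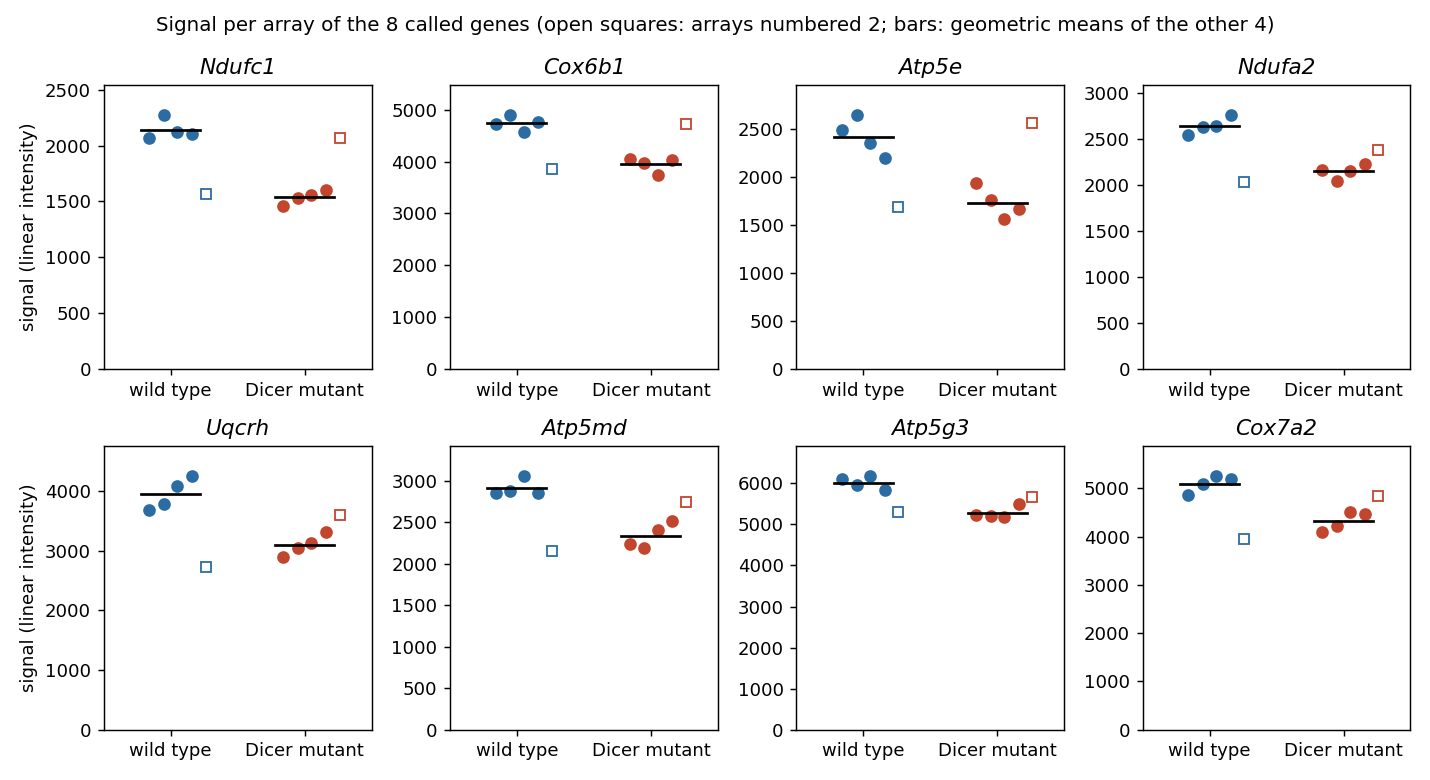
Signal (linear intensity, axes from 0) of the 8 called genes in each array. Filled circles are the arrays numbered 1, 3, 4 and 5, bars their geometric means, and open squares the arrays numbered 2; in each gene the 4 filled mutant points lie below the 4 filled wild type points.

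Complex I, the NADH dehydrogenase, was represented by 6 of its conserved core subunits and 28 supernumerary subunits, of which 27 were tested. Ndufc1, a small supernumerary subunit, had the smallest p of all these genes. Its signals were 2071, 2270, 2124 and 2106 in wild type 1, 3, 4 and 5 and 1456, 1531, 1557 and 1600 in Dicer mutant 1, 3, 4 and 5. The groups did not overlap, while wild type 2 (1568) lay within the mutant range and Dicer mutant 2 (2068) just below the lowest of the 4 wild type arrays. The fall of Ndufc1 was 0.48 on the log2 scale (SE 0.062, n = 4 per group, limma adjusted p = 0.00793), or 28.3%, and both of its tested probe sets were called. Ndufa2, whose protein has a thioredoxin-like fold, read 2543, 2637, 2647 and 2758 in the wild type arrays and 2169, 2048, 2156 and 2228 in the mutant arrays (-0.30, SE 0.055, adjusted p = 0.0346). These 2 were the supernumerary subunits called by their chosen probe set. Ndufb11 missed the call there (-0.30, SE 0.064, adjusted p = 0.0570), while 2 of its 3 tested probe sets were called. With the block 10 of 27 were called, against 3.01% of all probe sets called as lower. Ndufb10 was among these 10 (-0.46, SE 0.19, adjusted p = 0.0355 with the block and 0.349 without). All 27 had values below 0, from -0.48 to -0.098, with a median of -0.21. In 12 of the 27 the mutant arrays lay below all wild type arrays, against 4.97% of all probe sets.

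The core subunits of complex I, which include those that carry the flavin and the iron-sulfur clusters, had values closer to 0. None of the 6 was called, with or without the block, 1 had an unadjusted p below 0.05, and their median was -0.13 with a range of -0.16 to -0.064. Ndufv1, which binds NADH, had geometric mean signals of 1395 in wild type and 1335 in mutant arrays (-0.064, SE 0.089, adjusted p = 0.887). Ndufs1, the largest iron-sulfur subunit, had 1161 and 1057 (-0.14, SE 0.085, adjusted p = 0.614). Ndufv2 and Ndufs3 had the smallest p-values of this group, at -0.16 (SE 0.070, adjusted p = 0.374) and -0.10 (SE 0.061, adjusted p = 0.586). In 0 of the 6 did the groups separate. Whether core and supernumerary genes differ from each other was not tested. Ndufs5, the gene with the smallest p in the 10 arrays, read 1464 to 1805 in the 4 wild type and 1085 to 1451 in the 4 mutant arrays (-0.34, SE 0.11, adjusted p = 0.194).

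Complex II, succinate dehydrogenase, has 4 subunits, and none was called without the block, while 2 had an unadjusted p below 0.05. The membrane anchor genes Sdhc and Sdhd had the lower values. Sdhd read 1638, 1736, 1756 and 1974 in wild type 1, 3, 4 and 5 and 1396, 1417, 1378 and 1447 in the corresponding mutant arrays, with no overlap (-0.33, SE 0.072, adjusted p = 0.0594, with the block 0.0272). Sdhc read 971, 971, 801 and 788 against 708, 756, 684 and 625, again without overlap (-0.34, SE 0.10, adjusted p = 0.163, with the block 0.0335). For the catalytic subunits, flavoprotein Sdha and iron-sulfur protein Sdhb, the groups overlapped. Sdha had geometric means of 1579 and 1534 (-0.042, SE 0.062, adjusted p = 0.897) and Sdhb 2718 and 2525 (-0.11, SE 0.071, adjusted p = 0.646).

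All 8 subunits of complex III, the cytochrome bc1 complex, that the symbol rule takes in had values below 0, with a median of -0.21, and 1 was called. Uqcrh, the acidic hinge protein that helps cytochrome c to bind, read 3677, 3783, 4092 and 4251 in wild type and 2890, 3044, 3129 and 3318 in mutant arrays. Every mutant array lay under every wild type array, and Uqcrh fell by 0.35 (SE 0.065, adjusted p = 0.0349), with both of its tested probe sets called. Uqcrq, a small subunit near cytochrome b, had the lowest value of the complex, -0.51 (SE 0.14, adjusted p = 0.129, with the block 0.0515), but wild type 5 (827) barely exceeded Dicer mutant 3 (824). The core protein gene Uqcrc1 and the Rieske iron-sulfur protein gene Uqcrfs1 stood close to 0, at -0.049 (SE 0.16, adjusted p = 0.964) and -0.014 (SE 0.059, adjusted p = 0.973). With the block, Uqcr10 and Uqcr11 joined Uqcrh among the calls.

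Complex IV, cytochrome c oxidase, was represented by 17 genes, of which 13 were tested and 2 were called. Cox6b1, which links the monomers on the intermembrane side, read 4728, 4892, 4571 and 4758 in wild type and 4055, 3973, 3739 and 4023 in mutant arrays. It fell by 0.26 (SE 0.045, adjusted p = 0.0281), and both of its probe sets were called. Cox7a2, the form of subunit 7a found in most tissues, read 4866, 5094, 5255 and 5194 against 4103, 4216, 4519 and 4478 (-0.24, SE 0.048, adjusted p = 0.0466). The values of Cox7a2 do not overlap, but 1 of its 2 tested probe sets was called and its call was lost without any single array. Cox4i1 and Cox5a, the subunits that start the assembly of nuclear-encoded parts, had values of -0.14 (SE 0.086, adjusted p = 0.590) and -0.092 (SE 0.049, adjusted p = 0.516). Ndufa4, now counted as a subunit of complex IV despite its name, had -0.13 (SE 0.12, adjusted p = 0.781).

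Several complex IV subunits exist as a common and a tissue-specific form, and 4 of the tissue-specific forms lay below the filter on dim probe sets. Signals of different probe sets are not on one scale, so forms are not compared in level. The lung form Cox4i2 and the muscle forms Cox7a1 and Cox8b had mean signals of 141, 124 and 119, below the filter. Their differences were 0.057, 0.020 and 0.026. The testis form Cox7b2, with a mean signal of 38.5, read 31.6 to 41.0 in the 4 wild type and 41.4 to 45.8 in the 4 mutant arrays (0.30, not tested). Cox6a2, the heart and skeletal muscle form, passed the filter and varied more than the others: it read 413, 450, 735 and 555 in wild type 1, 3, 4 and 5 and 253, 420, 578 and 483 in the mutant arrays. Its groups overlapped (-0.34, SE 0.26, adjusted p = 0.715), and both groups were highest in number 4. Its common counterpart Cox6a1 had -0.21 (SE 0.054, adjusted p = 0.112, with the block 0.0484). Cox6b2 read 410 to 452 in the 4 wild type and 333 to 396 in the 4 mutant arrays (-0.26, SE 0.082, adjusted p = 0.185), and Cox8a had -0.19 (SE 0.10, adjusted p = 0.522). Cox8c, a testis form, was 1 of the 3 genes with values above 0 (0.079, SE 0.066, adjusted p = 0.749). Ndufa4l2, a hypoxia-induced relative of Ndufa4, had -0.051 (SE 0.078, adjusted p = 0.899).

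Complex V, the ATP synthase, had 3 of 17 genes called. Atp5e, the small epsilon subunit of the central stalk, read 2493, 2646, 2356 and 2198 in wild type and 1940, 1758, 1568 and 1664 in mutant arrays. It fell by 0.49 (SE 0.086, adjusted p = 0.0305), or 28.6%. Atp5md, a membrane subunit also known as DAPIT that supports the pairing of ATP synthases, read 2856, 2879, 3058 and 2855 against 2242, 2194, 2404 and 2512 (-0.32, SE 0.061, adjusted p = 0.0395). Atp5g3, 1 of 3 genes for the c subunit of the rotor ring, read 6113, 5952, 6178 and 5834 against 5228, 5211, 5182 and 5486 (-0.19, SE 0.038, adjusted p = 0.0454). In these 3 genes no mutant array reached a wild type array, arrays numbered 2 aside.

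The main subunits of the catalytic head of the ATP synthase had values nearer to 0, and neither was called. Atp5a1, the alpha subunit, had geometric means of 4971 and 4887 (-0.025, SE 0.038, adjusted p = 0.903). Atp5b, the beta subunit, which carries the catalytic sites, had 4950 and 5275 and was the gene with the highest value of all 89 (0.092, SE 0.055, adjusted p = 0.594), higher in the mutant array of all 4 numbers. With the block 7 of the 17 genes were called, all lower, against 3.01% of all probe sets called as lower. The median of the complex was -0.19, and 16 of 17 values lay below 0.

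**Figure D4:**
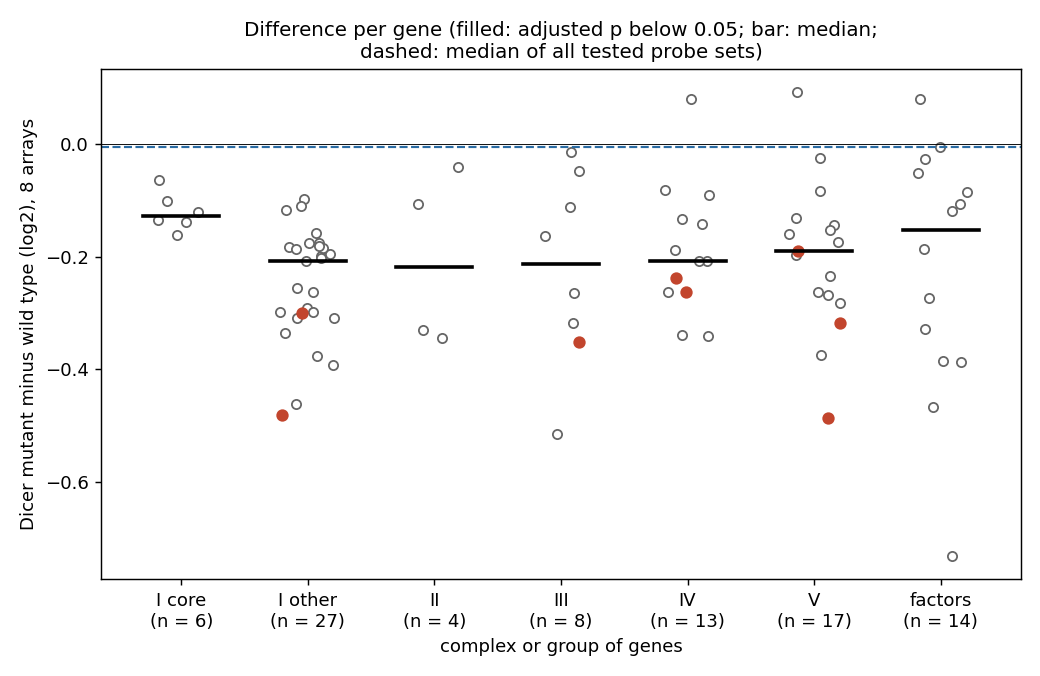
Difference between Dicer mutant and wild type (log2, vertical axis, 8 arrays) for each tested gene, grouped by complex; "factors" are assembly and accessory factors. Filled points are the 8 called genes, bars are medians (-0.13 for the complex I core to -0.22 for complex II), and the dashed line is the median of all tested probe sets (-0.0064).

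Among the 14 assembly and accessory factors none was called without the block and 4 were with it, while 6 had an unadjusted p below 0.05. Sdhaf1, which helps to insert the iron-sulfur clusters of Sdhb, had the lowest value of all 89 genes. Its signals were 537, 521, 472 and 327 in wild type 1, 3, 4 and 5 and 304, 278, 262 and 258 in the mutant arrays, so wild type 5 stood much closer to the mutants than the others did. The difference was -0.73 (SE 0.15, adjusted p = 0.0508, with the block 0.0170), and Dicer mutant 2 read 519, like a wild type array. Sdhaf3, another factor for Sdhb, read 360, 369, 382 and 366 against 297, 248, 288 and 302 (-0.38, SE 0.081, adjusted p = 0.0519, with the block 0.0334). Cox7a2l, which joins complexes III and IV into supercomplexes, had -0.47 (SE 0.10, adjusted p = 0.0570, with the block 0.0381). Ndufaf4 stood above 0 (0.078, SE 0.11, adjusted p = 0.885).

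Genes of related pathways were read from the same fit and are described by counts and medians, without a test of the difference between lists. Mitochondrial ribosomal protein genes, which make the proteins encoded by mitochondrial DNA, had a median of -0.19 over 76 genes. Of these, 62 had values below 0 and 14 above, the highest at 0.20. Calls were 4 as lower (Mrpl33, Mrpl24, Mrps16 and Mrps21) and 0 as higher, and 30 of the 76 had an unadjusted p below 0.05. All mutant arrays lay below all wild type arrays in 20 of the 76 genes, against 4.97% of all probe sets. They lay above them in 1, against 4.12%. Mrpl33 had -0.55 (SE 0.080, adjusted p = 0.0134). With the block 15 of these 76 were called, all lower, against 3.01% of all probe sets called as lower. Assembly factors with other symbols, such as Surf1 and Sco1, had a median of -0.13 over 28 genes, with 24 values below 0. Of these genes 0 were called and 10 had an unadjusted p below 0.05. With the block 5 were called: Coa3, Cox19, Uqcc2, Nubpl and Atpaf2, all lower.

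Other mitochondrial lists had medians nearer to that of all probe sets, of which 52.3% had values below 0. Electron carriers, ADP/ATP exchange and outer membrane channel genes had a median of -0.086 over 12 genes, with 10 values below 0. Of these genes 0 were called and 3 had an unadjusted p below 0.05. The list also holds the ATP synthase inhibitor gene Atpif1 and Cyc1, a complex III subunit outside the symbol rule. Cyc1 had -0.085 (SE 0.10, adjusted p = 0.855). Cytochrome c (Cycs) had -0.038 (SE 0.13, adjusted p = 0.965). The enzymes of the TCA cycle, which supply the electrons, had a median of -0.063 over 12 genes, with 8 values below 0. Of these enzymes 0 were called and 1 had an unadjusted p below 0.05. Citrate synthase (Cs) had -0.054 (SE 0.073, adjusted p = 0.882). Regulators of mitochondrial biogenesis had a median of -0.054 over 14 genes, with 0 called, 3 at an unadjusted p below 0.05 and 9 values below 0. Among them Nrf1 had -0.16 (SE 0.072, adjusted p = 0.383), Gabpa 0.024 (SE 0.072, adjusted p = 0.962), Yy1 -0.059 (SE 0.082, adjusted p = 0.885) and Tfam, the mitochondrial DNA packaging factor, -0.17 (SE 0.072, adjusted p = 0.353). ND5, the one gene of mitochondrial DNA measured, had 0.13 (SE 0.13, adjusted p = 0.805).

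Outside the mitochondrion, cytosolic ribosomal protein genes had a median of -0.043 over 45 genes, with 0 called, 6 at an unadjusted p below 0.05 and 1 called with the block. Of these 45 genes, 36 had values below 0, against 52.3% of all probe sets. In 7 of them all mutant arrays lay below all wild type arrays, against 4.97% of all probe sets. Glycolysis genes had a median of -0.11 over 14 genes, with 12 values below 0, 0 called and 0 at an unadjusted p below 0.05. Their array medians ranged from -0.20 in Dicer mutant 4 and -0.21 in Dicer mutant 2 to 0.71 in wild type 5, a wider range than that of the oxidative phosphorylation genes, which stood at 0.030 in wild type 5.

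**Figure D5:**
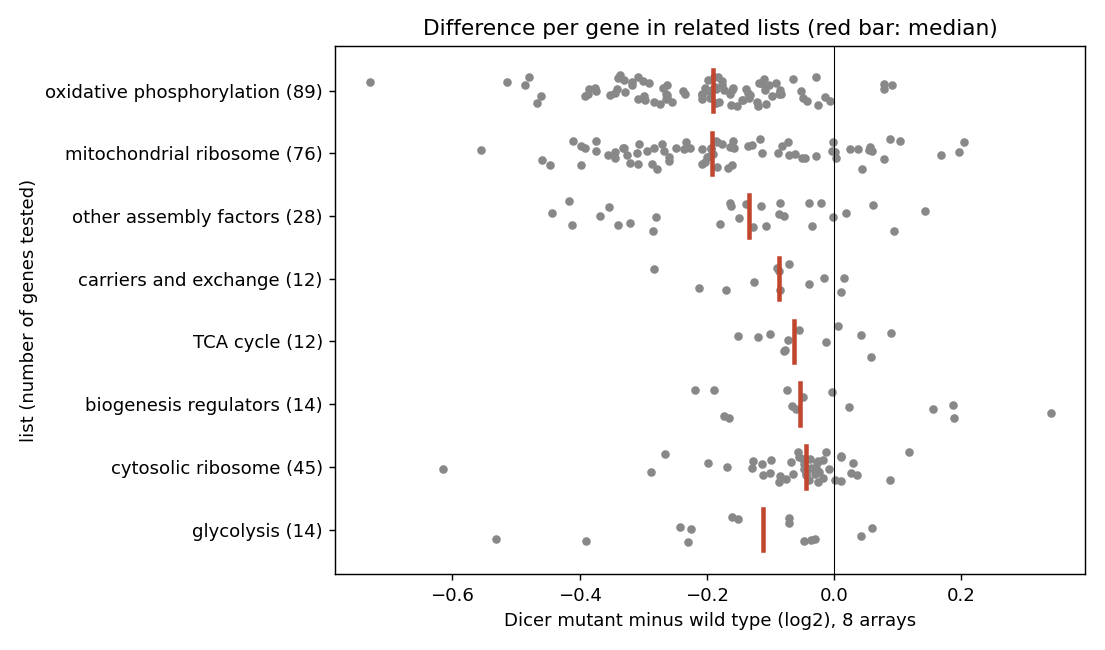
Difference between Dicer mutant and wild type (log2, horizontal axis, 8 arrays), 1 point per tested gene, for oxidative phosphorylation genes and 7 related lists, with medians as red bars. The medians of the oxidative phosphorylation and mitochondrial ribosome lists both lie at -0.19 and those of the other lists between -0.13 and -0.043.

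Cell type markers were read beside these values. All 12 limb mesenchyme markers passed the filter, with 0 called, a median of -0.0037 and summed signals of 13798 to 16135 in the 4 wild type and 14277 to 16755 in the 4 mutant arrays. Skeletal muscle markers (11 of 13 past the filter, Myf5 and Pax7 under it) had 0 called and a median of 0.016; their sums overlapped, at 2847 to 7710 and 2937 to 5842. Red cell markers (7 of 9 on the array past the filter) had 0 called and a median of 0.042, with sums of 28565 to 35707 and 30899 to 38573. Cartilage markers (6 of 10 past the filter) had a median of -0.20 and 1 called as lower, Col11a1, with sums of 5886 to 7858 and 4864 to 6883. White blood cell markers (5 of 11 past the filter, Ptprc, Cd68 and Adgre1 among those under it) had 0 called and a median of 0.16, with sums of 2000 to 2219 and 2144 to 2509. Nerve and Schwann cell markers (3 of 6 on the array past the filter) had 0 called, a median of -0.18 and sums of 1145 to 1308 and 1017 to 1171. Endothelial and ectoderm markers had 0 called each and medians of -0.038 and 0.063. With the block, the white blood cell markers Tyrobp and Ctss and the mesenchyme marker Tbx4 were called as higher and the ectoderm marker Krt14 and, again, Col11a1 as lower. The tested cartilage and nerve markers, 6 and 3 genes, had medians close to the -0.19 of the oxidative phosphorylation genes. Single values were scattered, from -0.58 to 0.083 for cartilage and from -0.33 to -0.0095 for nerve. The part of these cell types in the values of the oxidative phosphorylation genes was not tested.

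RNA integrity, read as the ratio of the actin probe sets at the 5′ and 3′ ends, was 0.664 to 0.800 in the 4 wild type and 0.740 to 0.789 in the 4 mutant arrays, with wild type 5 lowest. The same ratio for Gapdh was 0.971 to 1.08 and 1.03 to 1.07. Of the 45 genes with several tested probe sets, 41 had values below 0 in each of them. In Ndufab1, Ndufb2 and Ndufs4 1 of 3 tested probe sets had a value above 0, and in Ndufaf4 both did. The chosen probe set of 20 of the 94 genes, and of 3 of the 8 called genes (Atp5e, Ndufa2 and Uqcrh), carries a suffix that marks probes shared with other transcripts, so copies such as pseudogenes could contribute to those signals.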

How the data were processed

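Biotin-labelled RNA from limb buds was measured on 10 Affymetrix arrays, per the labels' protocols. The authors deposited linear intensity values for 45101 probe sets, and the submitters' processing notes name GCOS 1.3. How probes were summarized and scaled is not given in these sources, nor are detection calls, so how far dim signals exceed background cannot be read.

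Values were floored at 1 and put on the log2 scale without further normalization. Array controls (64 probe sets) were dropped. The 22519 others with a mean log2 value at or above the median were tested with limma 3.58.1 in R 4.3.3 (lmFit, eBayes with an intensity trend, Benjamini-Hochberg adjustment at 0.05); the script was tested on simulated data. A call was read only after adjustment over all tested probe sets. The number of arrays limits the precision. Promoters are those of RefSeq, assembly GRCm38.p6. Cytosolic ribosomal pseudogenes and S6 kinases were left out of their symbol prefix.

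The genes, lists and comparisons were chosen with earlier results of these data known. Genes named are fixed core subunits and isoform pairs, up to 4 called genes of each complex or the 2 with the smallest p, the 3 smallest p in the 10 arrays, and the 3 highest and lowest values. Ndufb10, Ndufb11, Cox7a2l, other genes listed beside a count and genes of related lists were named after their values were seen. Same-numbered arrays deviated together in the 8 arrays (correlations 0.55, 0.55, 0.71 and 0.32 for numbers 1, 3, 4 and 5). In the 10 arrays the correlations were 0.43, 0.27, 0.67 and 0.41 for these numbers and -0.18 for number 2. Numbers 2, 3 and 5 there correlated more with another number (up to 0.56, 0.56 and 0.52). Number 5 in the 8 arrays correlated less with its own number than with another (up to 0.52). No label says what a number marks, and arrays of different numbers correlated at up to 0.54 in the 8 arrays. The pairing thus comes from the data only, and values with the block are given beside the others.

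The alternatives tried were offsets of 16 and 64, quantile normalization, median centring of arrays, no filter, a filter at percentile 70, array weights, a fit lacking the intensity trend, the replicate block, gene means over probe sets, each array left out, and pairs 1 to 3 or 4 and 5 alone.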

Additional observations from a re-analysis of the deposited data

Results flagged for a closer look

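In the groups of 5 arrays as labelled, the signals of 37 named genes were screened for an array standing far from the other 4, and 8 of 74 groups were picked out, 7 of them through an array numbered 2. Chance alone gives about 1 of 20 groups, but that rate does not apply here, since several of these genes were named for their values in the 8 arrays without number 2. Wild type 2 was low for Ndufc1 (1568, others 2071 to 2270), Atp5md (2150, others 2855 to 3058) and Sdhaf3 (272, others 360 to 382). Dicer mutant 2 was high for Ndufc1 (2068, others 1456 to 1600), Cox6a1 (5097, others 4488 to 4539), Sdhaf1 (519, others 258 to 304) and Uqcrq (1230, others 734 to 824). The remaining one was Sdhb, low in Dicer mutant 3 (2301, others 2577 to 2618).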

How the results depend on the processing

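In the 10 arrays as labelled, 0 genes were called under every alternative run, and the median log2 difference stayed below 0, at -0.21 to -0.091. In the 8 arrays it stayed below 0 too and moved most with array weights (-0.26, with 51 called genes, where 11.6% of all probe sets were called). The 8 calls became 2 with no filter (0.655% of all probe sets), 14 with a filter at the 70th percentile (2.86%), 5 with no intensity trend (1.8%), 30 with the replicate block (5.41%), 21 in pairs 1 and 3 only (3.61%) and 0 in pairs 4 and 5 only. Leaving out 1 array gave 1 to 18 calls (0.413% to 3.31%). The other settings gave 7 to 11 (1.55% to 2.19% of all rows tested), and Ndufc1 was among the calls of every setting but pairs 4 and 5 only.

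Values of some named genes changed sign, and all of these but Cox6a2 had stood near 0. In the 10 arrays these were Atp5b (-0.0060 with array weights, -0.036 in pairs 1 to 3 only, -0.0084 to 0.078 with 1 array left out), Cox8c (-0.017 in pairs 1 to 3 only, -0.0065 to 0.077 with 1 left out), Ndufaf4 (-0.098 in pairs 1 to 3 only, -0.046 to 0.074 with 1 left out) and Uqcrfs1 (0.023 with array weights). In the 8 arrays Cox6a2, at -0.34 in the comparison given above, had 0.020 with array weights. The others there were Ndufaf4 (-0.046 in pairs 1 and 3 only), Uqcrc1 (0.022 in pairs 1 and 3 only, -0.14 to 0.055 with 1 left out) and Uqcrfs1 (0.036 with array weights, 0.031 in pairs 1 and 3 only, -0.037 to 0.015 with 1 left out). Where no construction of the alternative shows it, the cause was not tested. The distance of dim probe sets from background is unknown, which limits Cox4i2, Cox7a1, Cox7b2, Cox8b and Ndufb4.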
